A study of Mus musculus with 4 samples.

Results

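Tbx4, Tbx5, Tbx15, Tbx18, Pitx1, Osr1, Osr2, Tcf7l2 and Lmx1b are transcription factor genes that pattern the limb and its connective tissue. Their symbols were looked up in the feature table of 4 single-cell RNA-seq libraries, and 9 of 32285 genes in the table were these factors, each present under its own symbol. The libraries were prepared from leg muscles of mouse fetuses at E18.5 of gestation, 2 of them wild-type (WT) and 2 knockout (KO) fetuses lacking SYISL, a long noncoding RNA that overlaps an intron of the synaptopodin-2 gene, and the genotypes were littermates from heterozygous matings, told apart by genotyping tails. The fetuses carried no other allele and received no other treatment in the labels, each fetus was dissected on its own, and the labels name the tissue as leg muscles without naming the fore- or hindlimb.

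In the mouse embryo, Tbx5 marks the forelimb, whereas Pitx1 and its target Tbx4 mark the hindlimb, and these identities persist in connective tissue cells rather than in muscle cells, which migrate into the limb from the somites. Lmx1b gives dorsal identity to limb mesenchyme, Osr1 and Osr2 mark irregular connective tissue and its fibro-adipogenic progenitors (FAPs), and Tcf7l2 marks the connective tissue fibroblasts that pattern muscle. Tbx15 acts in limb skeleton, skin and muscle fibre type, and Tbx18 is known from pericytes, smooth muscle precursors and periarticular mesenchyme.

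The cell filter of the study's methods, applied here, kept 36969 of 41741 barcodes, 16692 WT and 20277 KO. The paper reports fewer cells of each genotype, so the cells kept here are not its cell set. The kept cells had library medians of 9118 to 11427 unique molecular identifiers (UMIs, each standing for 1 captured transcript molecule), and the libraries held 109653824 to 126257094 UMIs. Clusters were named from marker genes, and 18798 cells were FAP-like, the class that held most cells in every library. FAP-like cells held 27161 to 31453 counts scaled to 1000000 UMIs of the class (CPM) over a list of 10 FAP markers, against 53 to 124 CPM over the chondrocyte list and 7 to 307 CPM over the haemoglobin list. KO replicate 2 was the only library with Xist, the transcript that silences an X chromosome in females, with 131038 UMIs against 0 to 5 UMIs in the other 3 libraries, and held 101 UMIs of the Y-linked gene Ddx3y against 9326 to 10622 UMIs. The mast-like class also carried B-cell genes. Between 21 and 41 barcode sequences were shared by each pair of libraries. No gene of the feature table is named SYISL, so the deleted gene was not checked under that name.

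The 9 genes lie on different chromosomes of the mm10 build (GRCm38). Tbx4 lies at chr11:85886422-85916097 on the plus strand, Tbx5 at chr5:119832668-119885219 (plus), Tbx15 at chr3:99240381-99354259 (plus), Tbx18 at chr9:87702800-87731260 (minus) and Pitx1 at chr13:55825051-55836192 (minus). Osr1 lies at chr12:9570116-9581500 (plus), Osr2 at chr15:35296098-35303305 (plus), Tcf7l2 at chr19:55741820-55933654 (plus) and Lmx1b at chr2:33560965-33640511 (minus). Promoters of 4 of the 9 members were matched in RefSeq (GRCm38.p6), with 5 windows in all since Tcf7l2 has 2, and 1 window of each is printed, 5′ to 3′ on the strand of the gene, from 250 bases before to 50 bases after a start in RefSeq. These starts can differ from the ends of the gene spans given above: the Tbx4 and Tcf7l2 windows lie inside the spans and the Lmx1b window lies beyond its span. Tbx4 and Lmx1b had their highest mean in the same FAP-like sub-cluster, in which Tbx18 and Tcf7l2 had their lowest. On either strand, capitals mark TATAA or CCAAT, the letters of the TATA and CCAAT boxes, and also the core bound by Pitx factors, whose letters are TAATCC.
Tbx4, chr11:85896515-85896814, plus strand: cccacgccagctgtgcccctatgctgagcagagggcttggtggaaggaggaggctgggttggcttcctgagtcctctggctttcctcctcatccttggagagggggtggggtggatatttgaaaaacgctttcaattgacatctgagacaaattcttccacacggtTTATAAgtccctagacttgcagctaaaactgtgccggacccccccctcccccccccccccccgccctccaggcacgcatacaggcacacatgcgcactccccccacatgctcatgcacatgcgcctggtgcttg
Lmx1b, chr2:33641049-33641348, minus strand: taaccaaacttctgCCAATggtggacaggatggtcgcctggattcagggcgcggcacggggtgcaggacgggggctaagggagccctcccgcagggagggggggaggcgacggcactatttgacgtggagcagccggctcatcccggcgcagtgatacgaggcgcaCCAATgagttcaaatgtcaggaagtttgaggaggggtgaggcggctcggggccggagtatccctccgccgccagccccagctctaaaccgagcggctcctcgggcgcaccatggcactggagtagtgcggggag
Tbx18, chr9:87731211-87731510, minus strand: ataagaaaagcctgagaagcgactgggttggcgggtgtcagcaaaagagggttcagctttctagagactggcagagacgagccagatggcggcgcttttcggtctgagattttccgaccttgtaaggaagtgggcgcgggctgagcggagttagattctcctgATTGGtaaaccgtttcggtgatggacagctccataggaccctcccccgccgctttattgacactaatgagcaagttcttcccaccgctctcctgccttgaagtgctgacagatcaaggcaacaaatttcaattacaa
Tcf7l2, chr19:55895071-55895370, plus strand: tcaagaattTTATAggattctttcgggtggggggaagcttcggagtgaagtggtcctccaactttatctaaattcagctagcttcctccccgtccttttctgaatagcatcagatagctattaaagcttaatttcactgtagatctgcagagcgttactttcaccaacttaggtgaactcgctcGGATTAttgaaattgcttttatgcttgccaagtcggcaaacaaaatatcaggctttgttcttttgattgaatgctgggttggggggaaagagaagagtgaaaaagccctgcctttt

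The Tbx4 window held TATAA and its reverse complement TTATA, overlapping, 83 and 84 bases before the start, and TATAA in either strand was found in 24.9% of 32851 promoter windows of this length. The Lmx1b window held CCAAT 236 and 84 bases before the start, and the Tbx18 window held its complement ATTGG 87 bases before it, against 37.4% of all windows for CCAAT in either strand. The printed Tcf7l2 window lies at a start inside the gene span. It held GGATTA, the complement of TAATCC, 66 bases before that start and TTATA 241 bases before it. The other Tcf7l2 window, chr19:55741560-55741859 at the 5′ end of the span, held none of these letters. TAATCC in either strand was found in 7.06% of all windows and not in those of Tbx4, Lmx1b and Tbx18, and AGGTGT, the core bound by T-box factors (13.7% of all windows), was in none of the 5. A match is a run of letters, not a measured binding site, and its absence refers to these windows alone.

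The hindlimb genes Tbx4 and Pitx1 were highest in chondrocyte-like cells among the classes. Tbx4 stood at 33.3 and 56.3 CPM in the WT and 49.4 and 34.7 CPM in the KO chondrocyte-like cells (43.4 ± 11 CPM, mean ± SD, n = 4 libraries). In tenocyte-like cells it reached 16.6, 25.5, 15.1 and 21.8 CPM in WT replicates 1 and 2 and KO replicates 1 and 2, and in FAP-like cells 14.6, 18.52, 13.5 and 12.8 CPM in the same order. The chondrocyte-like range lay above that of tenocyte-like cells, and the tenocyte-like and FAP-like ranges overlapped. Myogenic-like cells held 2.76 ± 0.23 CPM, and the remaining classes with at least 50 cells in each library had means from 0.777 to 1.99 CPM.

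Pitx1, a homeodomain factor upstream of Tbx4, was also highest in chondrocyte-like cells, but with FAP-like cells next and tenocyte-like cells after them. It stood at 75.1, 101, 104 and 85.3 CPM in chondrocyte-like cells, 41.5, 53.4, 39.9 and 42.7 CPM in FAP-like cells and 32.0, 39.1, 28.3 and 38.7 CPM in tenocyte-like cells. These 3 ranges did not overlap one another, and all other classes of that size had means from 0.820 to 3.57 CPM. Across 14 classes and FAP-like sub-clusters, Pitx1 was the second of 12516 genes in likeness to Tbx4 (Pearson r = 0.93 of mean log2(CPM + 1)), after Sec16b (r = 0.96) and before Mab21l2 (r = 0.93). Pitx1 was also the member most like the forelimb gene Tbx5 on this measure (r = 0.93), so the likeness over classes was not particular to the hindlimb pair. The genes most like Pitx1 were Mab21l2 (r = 0.98), Lmx1b (r = 0.97) and Angptl1 (r = 0.96). These are descriptions over classes of the same 4 libraries, which share depth and dissection.

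Tbx5, the forelimb T-box gene, was measured in the same libraries at 14.1 and 11.5 CPM in WT and 13.4 and 15 CPM in KO FAP-like cells (13.5 ± 1.5 CPM). Chondrocyte-like cells ranged more widely, with 15.3, 5.61, 20.9 and 14.6 CPM, and overlapped the FAP-like range. Tenocyte-like cells (5.26 ± 1.3 CPM) lay below FAP-like cells in every library, and myogenic-like cells held 7 UMIs of Tbx5 in all. Its nearest genes by pattern were Dcaf12l1, Islr and Cfap74 (r = 0.97, 0.97 and 0.96).

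Tbx15 was broad within the mesenchyme. FAP-like cells held 175, 178, 182 and 181 CPM (179 ± 3.1 CPM) and chondrocyte-like cells 169, 162, 216 and 174 CPM, overlapping ranges. Tenocyte-like cells (117 ± 8.2 CPM), smooth muscle or pericyte-like cells (77.3 ± 1.8 CPM) and myogenic-like cells (37.1 ± 3.7 CPM) followed, each range below the one before it. Mrc2, Fbn2 and Col6a2, a collagen receptor and matrix genes, had the patterns most like it (r = 0.98, 0.98 and 0.97).

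Tbx18 was the member for which the mural class stood as high as FAP-like cells. Smooth muscle or pericyte-like cells held 38.0, 49.4, 41.3 and 43.7 CPM (43.1 ± 4.8 CPM) and FAP-like cells 38.4, 40.8, 47.7 and 39.4 CPM (41.6 ± 4.2 CPM), ranges that overlapped almost wholly. Chondrocyte-like cells (28.5 ± 8.1 CPM) overlapped FAP-like cells through KO replicate 1 alone, and tenocyte-like cells stood at 17.5 ± 2.2 CPM. The nearest patterns were those of Begain, Ror2 and Kcne4 (r = 0.96, 0.96 and 0.96).

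The zinc finger genes Osr1 and Osr2 were highest in FAP-like cells and differed in what came second. Osr1 held 72.8, 78.2, 79.1 and 75.4 CPM in FAP-like cells, and the next class, smooth muscle or pericyte-like cells, held 13.1 ± 1.5 CPM. Osr2 held 104, 113, 105 and 108 CPM in FAP-like cells, followed by chondrocyte-like cells (48.8 ± 6.6 CPM), where Osr1 stood at 7.62 ± 3.3 CPM. Myogenic-like cells carried 15.9 ± 1.5 CPM of Osr2 and 0.733 ± 0.20 CPM of Osr1. Fgf7 and Mfap5 were among the nearest patterns to Osr1 (r = 0.96 and 0.96, after Rgs17), and Trpm5, Gm44899 and Rasl10a were nearest to Osr2 (r = 0.94, 0.93 and 0.92).

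Tcf7l2, a nuclear partner of beta-catenin, was detected in every class. FAP-like cells held 527 and 453 CPM in WT and 501 and 454 CPM in KO (484 ± 36 CPM), above chondrocyte-like (230 ± 12 CPM), endothelial-like (217 ± 12 CPM) and myogenic-like cells (170 ± 8.9 CPM), with tenocyte-like cells at 127 ± 8.1 CPM and mast-like cells lowest at 48.7 ± 12 CPM. The ranges of chondrocyte-like and endothelial-like cells overlapped, and FAP-like and mast-like cells each stood clear of their neighbours. The genes nearest by pattern were Phactr2, Pex3 and Thoc2 (r = 0.95, 0.94 and 0.93). Lmx1b, the dorsal limb factor, was low but mesenchymal: 8.31, 7.37, 7.40 and 9.27 CPM in FAP-like cells, 6.78 ± 1.2 CPM in tenocyte-like and 6.49 ± 0.31 CPM in chondrocyte-like cells, with overlapping neighbours in that order and means of at most 1.18 CPM in the other classes of that size. Besides Pitx1 and Angptl1, its pattern was nearest to that of Hand2os1 (r = 0.97).

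**Figure D1:**
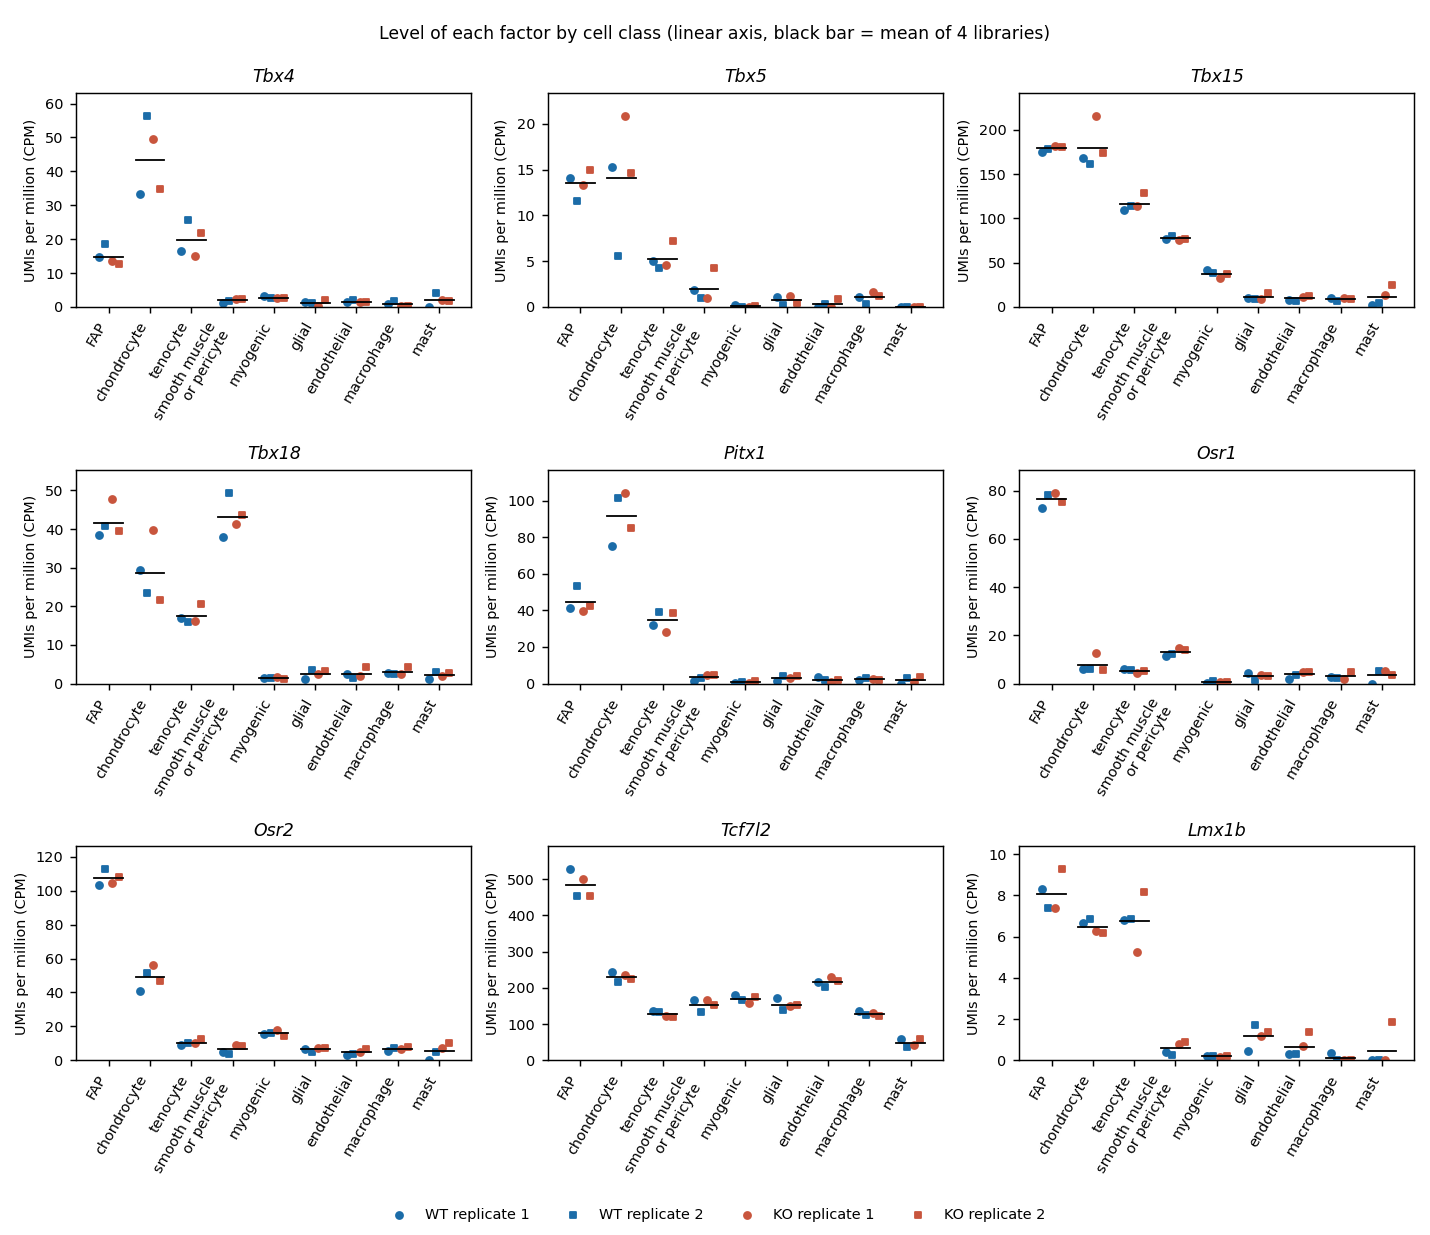
Level of each of the 9 factors (y axis, level in CPM, linear) in 9 cell classes (x axis). Blue points are WT and red points KO libraries, circles replicate 1 and squares replicate 2, and the black bar is the mean of 4 libraries. Tbx4 and Pitx1 are highest in chondrocyte-like cells, Osr1 and Osr2 in FAP-like cells, and Tbx18 is as high in smooth muscle or pericyte-like as in FAP-like cells.

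Shares of cells with a UMI gave the same picture after each cell was thinned to 2000 UMIs, with macrophage-like cells, which should lack these genes apart from Tcf7l2, as the background of free RNA. A UMI of Tbx15 was found in 28.0% of FAP-like cells (71.8% unthinned) and in 1.93% of macrophage-like cells. For Osr2 the shares were 18.1% (54.5% unthinned) and 0.758%, for Osr1 13.8% (48.5%) and 0.403%, for Pitx1 7.93% (29.4%) and 0.634%, and for Tbx18 7.78% (28.6%) and 0.501%. The low genes also stood above background: Tbx4 at 2.87% (13.5% unthinned) against 0.102%, Tbx5 at 2.63% (11.3%) against 0.115%, and Lmx1b at 1.51% (7.51%) against 0%. Tcf7l2 was found in 56.5% of FAP-like cells (92.5% unthinned) and in 19.4% of macrophage-like cells. The median depths of the unthinned classes were 10447 and 11080 UMIs, as means over libraries, and 39 FAP-like cells with fewer than 2000 UMIs were left out.

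FAP-like cells fell into 6 sub-clusters, and the members were spread unevenly over them. The Anxa8 sub-cluster held the highest Tbx4, with 43.1 and 47.3 CPM in WT and 38.9 and 34.2 CPM in KO, and the highest Pitx1, with 100, 103, 96.7 and 84.0 CPM. Both ranges lay above those of the cycling sub-cluster, the next in order, at 18.9 ± 2.7 CPM of Tbx4 and 60.8 ± 9.8 CPM of Pitx1. The same sub-cluster had the highest mean of Lmx1b (13.0 ± 3.4 CPM) and Osr2 (142 ± 7.0 CPM), overlapping the next in each case, and the lowest mean of Tcf7l2 (213 ± 27 CPM) and Tbx18 (20.8 ± 10 CPM). It held 333, 531, 147 and 586 cells in the 4 libraries, so KO replicate 1 contributed the fewest.

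The Ccl11 sub-cluster, named from a marker list of Ccl11, Hhip, Cldn1 and Lepr, was the reverse for several factors. Osr1 was highest there at 98.3, 114, 103 and 83.9 CPM, above the largest sub-cluster at 73.0 to 81.9 CPM. Tbx18 (61.2 ± 7.9 CPM) was second only to the Lef1 sub-cluster, while Osr2 (29.9 ± 4.1 CPM), Tbx4 (3.89 ± 1.3 CPM), Tbx5 (5.19 ± 1.4 CPM), Pitx1 (15.9 ± 5.7 CPM) and Lmx1b (2.79 ± 0.71 CPM) had their lowest sub-cluster means there. The small Lef1 sub-cluster, of 46 to 62 cells in each library, held 131, 202, 177 and 156 CPM of Tbx18, above all other sub-clusters, and 24.9 ± 3.6 CPM of Osr1, below all others. The largest sub-cluster had the highest mean of Tcf7l2 (631 ± 36 CPM) and of Tbx5 (16.1 ± 0.80 CPM), and Tbx5 in the Pi16 sub-cluster, named for a marker of adventitial fibroblasts, was alike at 15.9 ± 3.2 CPM with overlapping ranges. Sub-clusters came from the same cells, so these differences carry no test, and none of the 9 members was among the variable genes used to cluster.

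**Figure D2:**
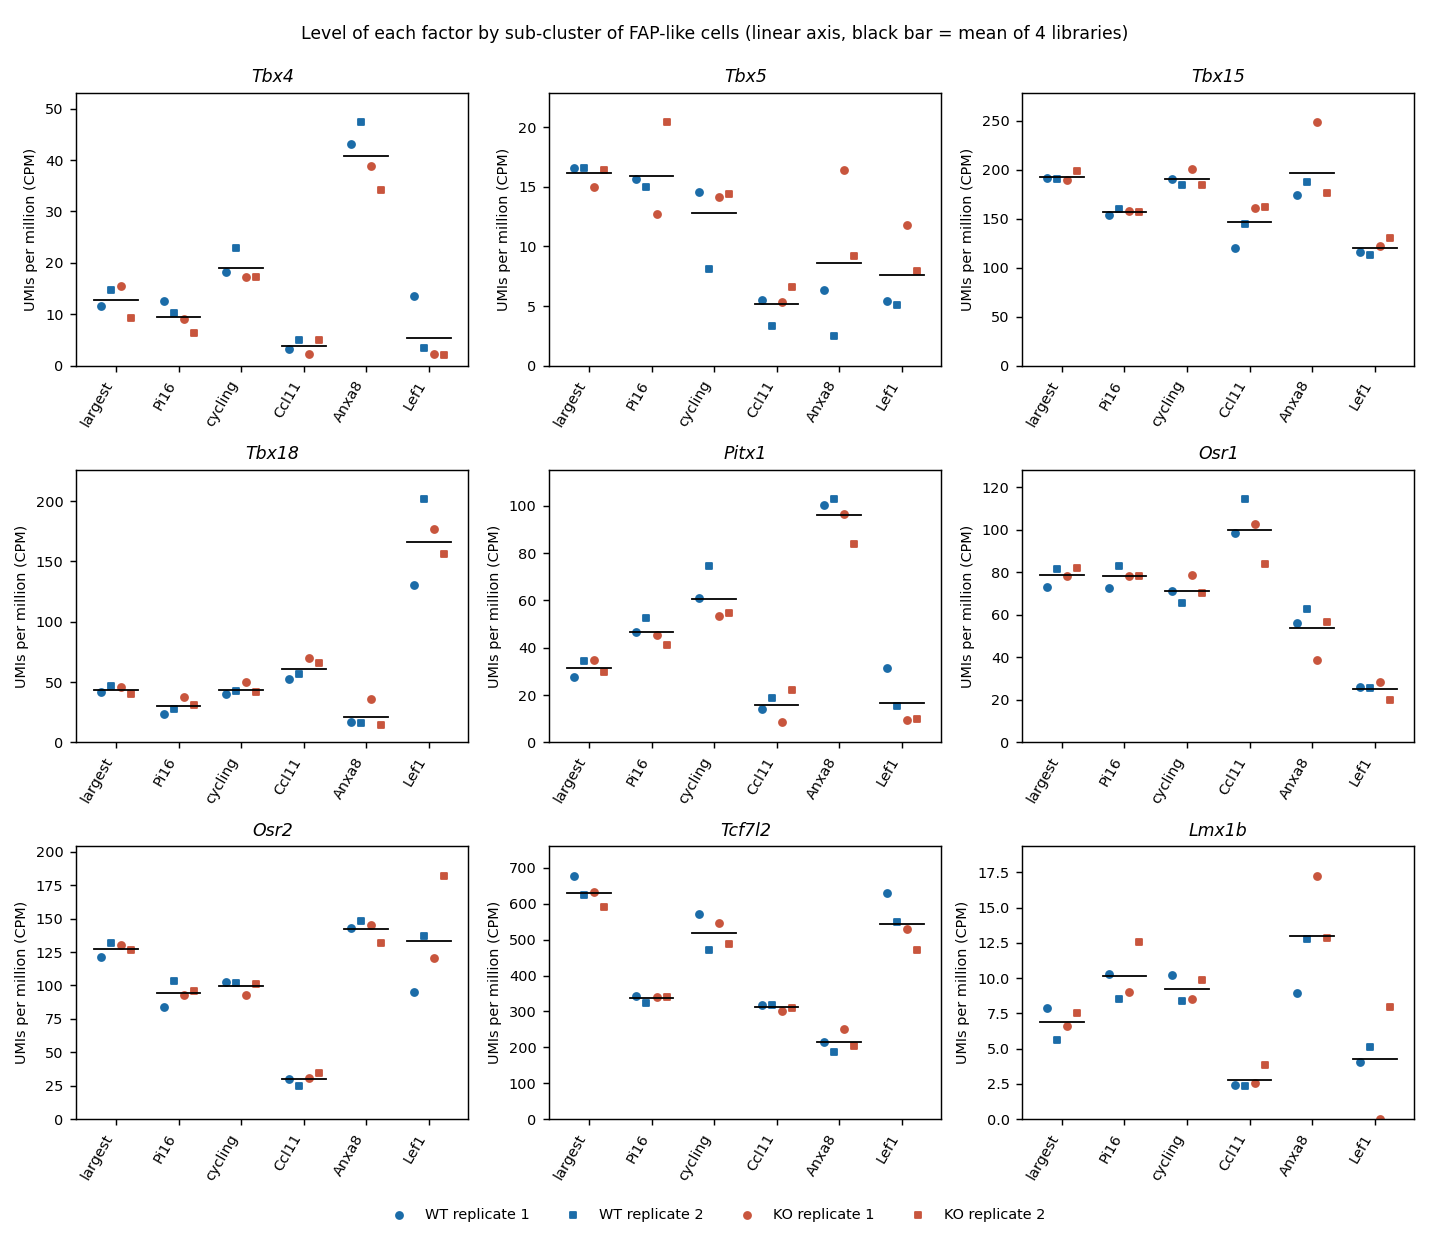
Level of each factor (y axis, level in CPM, linear) in 6 FAP-like sub-clusters (x axis), points and bars as in the plot by cell class. Tbx4 and Pitx1 peak in the Anxa8 sub-cluster, Osr1 in the Ccl11 sub-cluster and Tbx18 in the Lef1 sub-cluster.

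Whether forelimb and hindlimb factors lay in the same cells was asked by counting FAP-like cells with UMIs of both members, each cell thinned to 5000 UMIs, against the number expected if detection were independent within each library and sub-cluster. Of 17883 cells, 63 held both Tbx5 and Pitx1 where 191 were expected, a ratio of 0.33, with 0.42, 0.34, 0.29 and 0.29 in WT replicates 1 and 2 and KO replicates 1 and 2. Tbx5 and Tbx4 were found together in 37 cells against 71.5 expected, a ratio of 0.52 that ranged from 0.22 in WT replicate 2 to 0.76 in WT replicate 1. Tbx4 and Pitx1 went the other way, with 382 cells against 268 expected (1.43) and ratios of 1.35, 1.35, 1.39 and 1.65. All 4 libraries were on the same side of 1 for each of these pairs. In the largest sub-cluster alone the ratio of Tbx5 with Pitx1 was 0.15 (12 cells against 78.1) and that of Tbx4 with Pitx1 was 1.85. The Anxa8 sub-cluster differed. There 7 of 14, 1 of 4, 6 of 12 and 2 of 20 cells with Tbx5 also held Tbx4 or Pitx1, libraries in the same order. Of all Anxa8 cells 53.2, 52.5, 49.5 and 42.7 percent held Tbx4 or Pitx1. WT replicate 1 and KO replicate 1 thus showed no clear departure in that sub-cluster.

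Other pairs departed less. Tbx5 and Tbx18 were found together more often than expected in all libraries (1.49, 1.10, 1.44 and 1.19, together 1.32), and so were Tbx5 and Tbx15 (1.10). Pitx1 and Lmx1b stood at 1.26 at this depth and at 0.84 when cells were thinned to 2000 UMIs. Tbx18 and Lmx1b stood at 0.74. The rest of the 36 pairs lay between 0.84 (Tbx4 with Tbx18) and 1.14 (Tbx4 with Lmx1b). In tenocyte-like cells no cell held both Tbx5 and Pitx1 where 6.40 were expected, and 46 held both Tbx4 and Pitx1 where 26.3 were expected. In chondrocyte-like cells 24 held Tbx5 and Pitx1 against 35.1 expected (0.68), with ratios of 0.53, 1.49, 0.78 and 0.48, so WT replicate 2 went the other way. Tbx4 and Tbx5 were found together there in 16 cells against 17.7 expected (0.91), with ratios of 1.68, 1.40, 0.62 and 0.50. Tbx4 and Pitx1 were near independence in chondrocyte-like cells, in 146 cells against 135 expected (1.08). Their ratios there were 1.26, 0.94, 1.08 and 1.22, so WT replicate 2 was below 1.

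**Figure D3:**
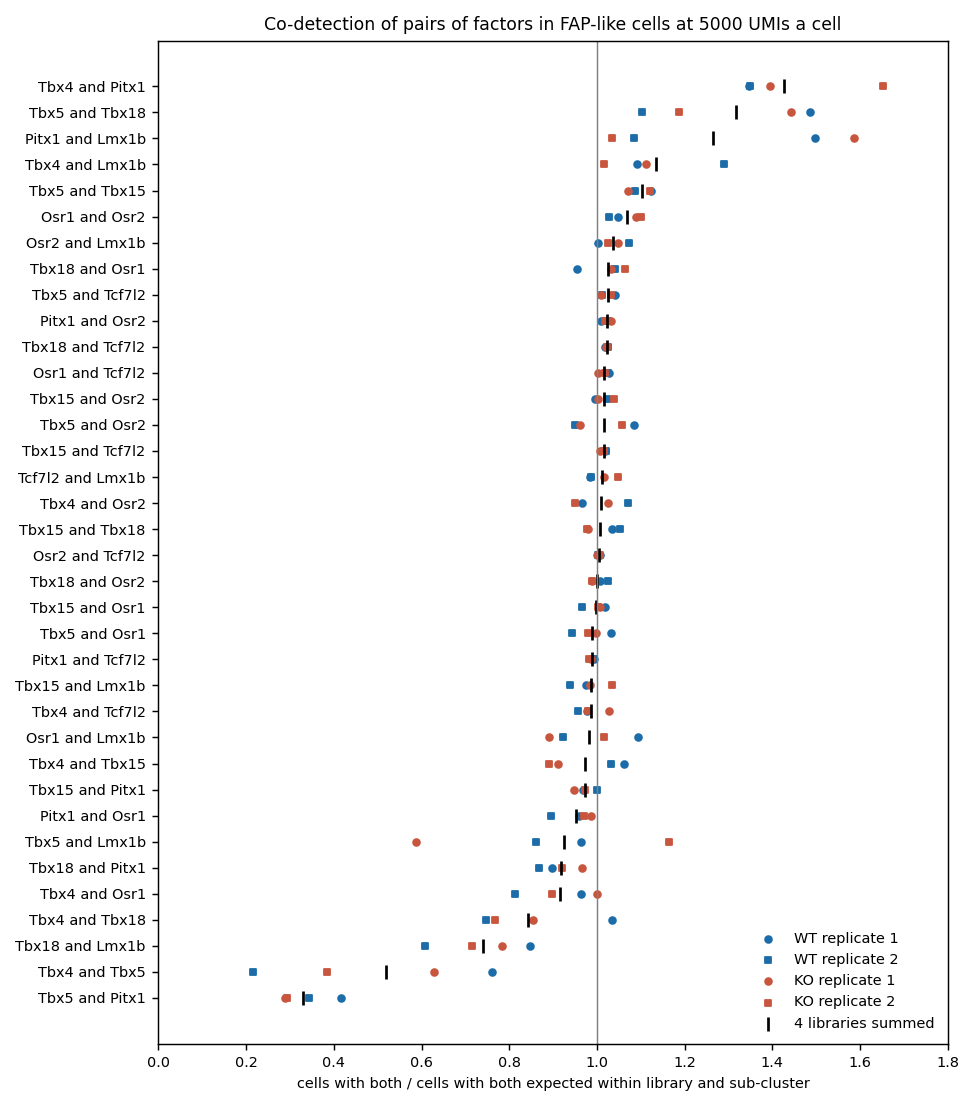
Ratio of observed to expected cells with UMIs of both genes (x axis, linear, 1 = independent) for the 36 pairs of factors (y axis) in FAP-like cells. Coloured points are the 4 libraries and the black tick is their sum. Tbx5 with Pitx1 (0.33) and Tbx5 with Tbx4 (0.52) stand lowest and Tbx4 with Pitx1 (1.43) highest.

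Cells with Tbx5 and cells with the hindlimb genes were present in every library. In FAP-like cells of WT replicate 1, 268 cells held Tbx5 and 872 held Tbx4 or Pitx1. The numbers were 204 and 1048 in WT replicate 2, 318 and 1057 in KO replicate 1, and 344 and 992 in KO replicate 2, with 16 to 30 cells a library holding both. That made 30.7, 19.5, 30.1 and 34.7 cells with Tbx5 for each 100 cells with Tbx4 or Pitx1. Chondrocyte-like cells had 17.4, 3.39, 20.8 and 13.5 and tenocyte-like cells 7.96, 9.60, 9.59 and 14. WT replicate 2 was lowest in FAP-like and in chondrocyte-like cells. These ratios depend on the level of each gene in a cell as well as on the number of cells, and the 2 cannot be told apart.

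FAP-like cells with a UMI of Tbx5 and none of Tbx4 or Pitx1 were then set against cells with Tbx4 or Pitx1 and none of Tbx5, a split chosen after the data were seen. Both sides came from the same 4 libraries and were compared within each library by edgeR's quasi-likelihood test with Benjamini-Hochberg adjustment. Cells with these genes differed in sub-cluster makeup. The Anxa8 sub-cluster made up 4.19% of cells with Tbx5, 24.2% of cells with Tbx4 and 17.3% of cells with Pitx1, as means over libraries. The largest sub-cluster made up 53.1%, 37.9% and 33.0% of them in the same order. Unless stated, the values are over all FAP-like cells. Of 12480 genes, 881 passed (7.06 percent), 463 higher and 418 lower on the Tbx5 side. Among 52 tested genes of a list of 69 other limb and connective tissue factors, 7 were higher and 13 lower. The list includes Hox genes, so some of these calls are the same as the Hox calls given next. Leaving out WT replicate 1, WT replicate 2 or KO replicate 2 brought the count of genes to 478, 576 and 543.

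Hox genes set position along the body axis and along the limb, and 5 of the 7 Hox genes that were lower on the Tbx5 side were genes of the Hoxc cluster. Hoxc10 stood at 8.40, 8.51, 6.94 and 0.617 CPM on the Tbx5 side and at 46.1, 43.6, 50.6 and 47.5 CPM on the Tbx4 or Pitx1 side (log2 fold change -3.07 ± 0.25, SE, edgeR adjusted p = 5.01e-08). Hoxc11 stood at 0.840, 3.19, 0.694 and 1.85 CPM against 17.3, 24.4, 20.4 and 25.5 CPM (-3.80 ± 0.32). For both genes the ranges lay far apart in every library. Hoxc9 (-3.53 ± 0.52), Hoxc8 (-2.49 ± 0.42) and Hoxc5 (-2.25 ± 0.39) were lower as well, so 5 of 7 tested Hoxc genes fell. Hoxc4 (-1.08 ± 0.38, edgeR adjusted p = 0.0992) and Hoxc6 (-0.81 ± 0.27, edgeR adjusted p = 0.0824) did not pass.

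Elsewhere in the Hox clusters the picture was mixed. Of 7 Hoxa genes tested, Hoxa10 (-0.65 ± 0.09) and Hoxa11 (-1.0 ± 0.28) were lower on the Tbx5 side and none was higher. Hoxa11 stood at 10.1, 12.8, 13.2 and 2.47 CPM against 16.4, 27.1, 13.0 and 19.1 CPM, so it was not lower in KO replicate 1. Hoxb2, the only Hoxb gene tested, was higher, at 12.6, 17.0, 15.3 and 33.3 CPM against 6.18, 1.36, 2.92 and 3.29 CPM (2.52 ± 0.33). Hoxd13, a gene of the most distal limb, was higher (2.18 ± 0.53) on 25 and 23 UMIs, and the other 5 of 6 Hoxd genes tested had positive values that did not pass. Over all 21 tested Hox genes, 2 were higher and 7 lower.

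**Figure D4:**
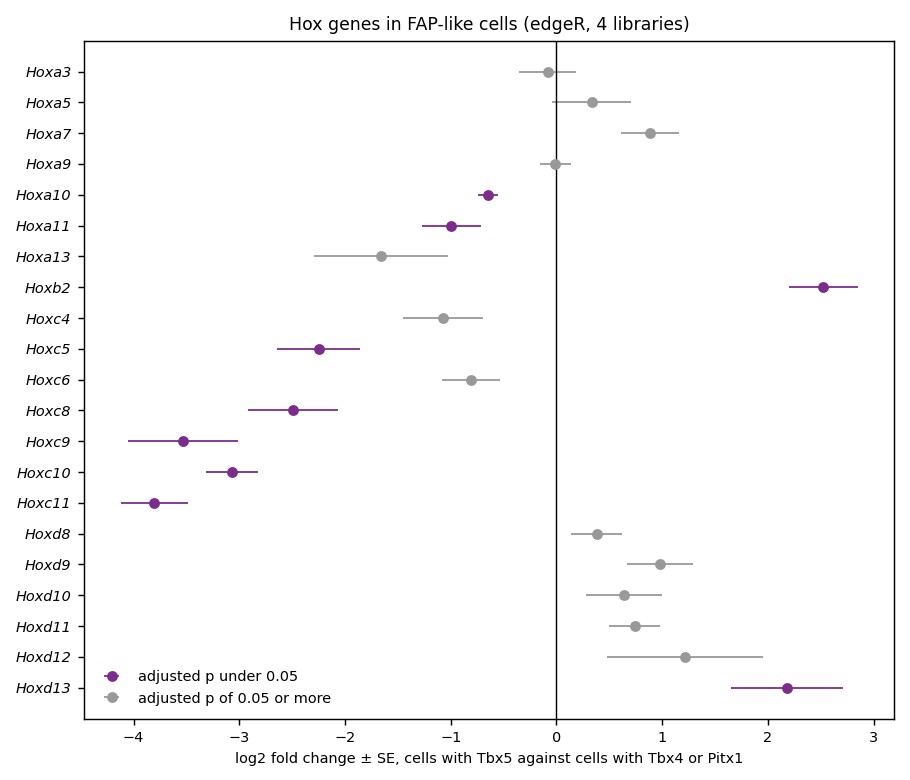
Log2 fold change ± SE (x axis, linear) of 21 Hox genes (y axis) between FAP-like cells with Tbx5 and FAP-like cells with Tbx4 or Pitx1, over 4 libraries by edgeR. Purple points passed an adjusted p of 0.05 and grey points did not. All 7 Hoxc genes lie to the left of 0 and all 6 Hoxd genes to its right, with 5 Hoxc genes, Hoxa10, Hoxa11, Hoxb2 and Hoxd13 in purple.

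Outside the Hox genes, Hpse2 (heparanase 2, which binds heparan sulphate) was higher in cells with Tbx5, at 129, 139, 148 and 79.0 CPM against 26.1, 30.6, 37.8 and 23.5 CPM (2.05 ± 0.10). Hpse2 was itself on a marker list for naming FAP-like sub-clusters, and its values here and in the splits below are over all FAP-like cells. Frmpd4 (1.82 ± 0.12) and Il1rapl1 (1.63 ± 0.13), synaptic scaffold and adhesion genes, were also higher. Cxcl9, an interferon-induced chemokine (-2.37 ± 0.22), and Dcc, the netrin receptor (-2.24 ± 0.24), were lower. Among the factors, Ebf2 (0.54 ± 0.06), Nr2f2 (0.54 ± 0.09), Prrx1 (0.34 ± 0.08) and Zfhx4 (0.25 ± 0.06) were higher and Hand2 (-0.74 ± 0.20) and Prrx2 (-0.72 ± 0.14), mesenchymal factors of the early limb bud, were lower. The call of Prrx1 was lost without KO replicate 1 (0.21) or WT replicate 1 (0.36), that of Hand2 without KO replicate 2 (-0.49), WT replicate 1 (-0.87) or WT replicate 2 (-0.78), and that of Zfhx4 without KO replicate 2 (0.19), WT replicate 1 (0.20) or WT replicate 2 (0.27).

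Of the 6 members not used to make this split, 3 were higher on the Tbx5 side. Tbx18 stood at 65.5, 44.7, 70.8 and 50.0 CPM against 33.5, 28.7, 41.9 and 32.5 CPM (0.75 ± 0.11, edgeR adjusted p = 6.85e-05). Tbx15 (0.33 ± 0.07) and Tcf7l2 (0.36 ± 0.06) differed less, and their values in the largest sub-cluster alone were 0.19 and 0.02, where they did not pass. Osr1 (0.12 ± 0.09), Osr2 (-0.08 ± 0.08) and Lmx1b (-0.63 ± 0.27) did not pass.

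Each member was also used on its own to split FAP-like cells, with the member itself left out of the test and the other 8 tested. These reciprocal tests read the same cells as the counts of pairs. In the split by Tbx5, 482 of 15685 genes passed (3.07 percent) and 5 of 8 members did. Pitx1 stood at 16.4, 21.6, 11.3 and 11 CPM in cells with Tbx5 and at 43.2, 55.9, 43.2 and 45.4 CPM in cells without it (-1.70 ± 0.14). Tbx4 was lower (-1.0 ± 0.23) by edgeR, with an adjusted p of 0.00629, but its call was lost by DESeq2 (-1.05) and without KO replicate 2 (-0.85) or WT replicate 2 (-0.71). Tbx18 (0.46 ± 0.10), Tbx15 (0.29 ± 0.06) and Tcf7l2 (0.24 ± 0.04) were higher, the first 2 not without WT replicate 1 (0.36 and 0.23), and Tbx15 stood at -0.05 in cells thinned to 2000 UMIs. Hoxc10 (-1.95 ± 0.19) and Cxcl9 (-1.81 ± 0.17) fell and Frmpd4 (0.98 ± 0.09), Phex (0.97 ± 0.13) and Hpse2 (0.95 ± 0.07) rose. Of 61 other factors, 6 were higher, Ebf2 (0.24 ± 0.04) among them, and 8 lower, Meis2 (-0.41 ± 0.08) and Nr2f2 (-0.39 ± 0.08) among them. Nr2f2 stood at 0.47 in the largest sub-cluster alone. The count of genes was 261 without KO replicate 2 and 244 without WT replicate 1.

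Pitx1 gave the mirror image. In its split 1369 of 15090 genes passed (9.07 percent) and 5 of 8 members. Tbx5 stood at 5.28, 3.37, 4.40 and 4.46 CPM in cells with Pitx1 and at 16.1, 14, 16.2 and 18.54 CPM in cells without it (-1.89 ± 0.15), and Tbx4 at 24.6, 32.7, 21.8 and 27.5 CPM against 12, 15.1, 12.8 and 9.62 CPM (1.1 ± 0.11). Neither gene had overlapping ranges. Lmx1b was higher (0.73 ± 0.15), and Tbx18 (-0.35 ± 0.08) and Tcf7l2 (-0.16 ± 0.04) lower, which did not pass without WT replicate 2 (-0.28) and WT replicate 1 (-0.14). Sox6, a factor of cartilage formation (1.43 ± 0.12), Acan, the aggrecan gene (1.32 ± 0.11), and Ecrg4 (1.28 ± 0.05) were higher. Ccl11 (-1.64 ± 0.12), Hbb-bt, a haemoglobin gene (-1.45 ± 0.26), and Hpse2 (-1.45 ± 0.09) were lower. Of 59 other factors, 13 were higher, including Hoxc10 (0.84 ± 0.09), Hoxa11 (0.65 ± 0.11) and Hoxc11 (0.62 ± 0.11), and 11 lower, including Nr2f2 (-0.86 ± 0.05), Gli1 and Ptch1. The Anxa8 sub-cluster made up 17.3% of cells with Pitx1 and 8.40% of all FAP-like cells, and in the largest sub-cluster alone Sox6 (0.78), Ecrg4 (0.56) and Nr2f2 (-0.10) did not pass. Without WT replicate 1 the count was 897.

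The split by Tbx4 passed 672 of 15384 genes (4.37 percent) and 5 of 8 members. Pitx1 stood at 82.2, 92.3, 62.3 and 91.9 CPM in cells with Tbx4 and at 38.6, 50.6, 39.7 and 39.9 CPM in cells without it (0.93 ± 0.09). Tbx5 (-1.13 ± 0.24), Tbx18 (-0.42 ± 0.12) and Osr1 (-0.33 ± 0.09) were lower and Osr2 higher (0.27 ± 0.07). Without WT replicate 2 the calls of these last 4 were lost, with values of -0.84, -0.33, -0.24 and 0.20. Tbx18 was also lost without KO replicate 1 (-0.43) or KO replicate 2 (-0.36), Osr1 without KO replicate 2 (-0.29), and Osr2 without KO replicate 1 (0.27) or WT replicate 1 (0.28). Sox5 (1.76 ± 0.09), Sox6 (1.71 ± 0.13), Schip1 (1.83 ± 0.22) and the factor Foxp1 (0.71 ± 0.08) were higher, and Il6 (-1.45 ± 0.17), Cygb (-1.38 ± 0.12), Acta2 (-1.32 ± 0.14), Nr2f2 (-1.31 ± 0.09) and En1 (-0.99 ± 0.20) lower. Schip1 and Sox5 turned to -0.56 and -0.27, Foxp1 to -0.26 and Acta2 to 0.31 in the largest sub-cluster alone, where none of them passed. Of 59 other factors 7 were higher and 8 lower, and the count of genes was 308 without WT replicate 2, 362 without WT replicate 1 and 372 without KO replicate 2.

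Tbx18 went with Tbx5 and against the hindlimb genes in its own split. Of 15307 genes 666 passed (4.35 percent), and of 8 members Tbx5 (0.45 ± 0.11) and Tcf7l2 (0.19 ± 0.03) were higher and Pitx1 (-0.36 ± 0.07), Tbx4 (-0.52 ± 0.12) and Lmx1b (-0.69 ± 0.17) lower. Pitx1 stood at 32.9, 40.8, 37.0 and 35 CPM in cells with Tbx18 and at 43.1, 56.7, 42.1 and 44.6 CPM in cells without it, below in every library. The call of Tbx5 was lost without KO replicate 1 (0.39) or WT replicate 1 (0.37), and those of Tbx4 and Lmx1b without KO replicate 2 (-0.46 and -0.68) or WT replicate 2 (-0.43 and -0.62). The Hedgehog pathway genes Gli1, at 20.0 against 12.2 CPM (0.70 ± 0.10), and Ptch1 (0.48 ± 0.07) were higher, as were Tenm2 (0.94 ± 0.12), Col15a1 (0.90 ± 0.07), Cldn1 (0.86 ± 0.09) and Nr2f2 (0.50 ± 0.05). C1qtnf3 (-1.46 ± 0.10), the tendon genes Kera (-1.36 ± 0.10) and Tnmd (-1.34 ± 0.16), and Hoxa11 (-0.86 ± 0.13) were lower. None of these passed in the largest sub-cluster alone, and Nr2f2 (-0.03) and Tnmd (0.11) changed sign there. Of 59 other factors 12 were higher and 8 lower, and the count of genes was 381 without KO replicate 2 and 415 without WT replicate 1.

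Tbx15 was detected in most cells, and its split passed 2011 of 15326 genes (13.1 percent), with Tcf7l2 (0.20 ± 0.02) and Tbx5 (0.31 ± 0.08) higher among the 8 members, the latter not without KO replicate 2 (0.30) or WT replicate 1 (0.28). Hmcn1 (0.48 ± 0.06), Mylk (0.42 ± 0.04) and Eya4 (0.40 ± 0.07) led the higher genes, and the pericyte gene Rgs5 (-1.10 ± 0.08), Ccl11 (-0.92 ± 0.08) and Wnt2 (-0.59 ± 0.07) the lower ones. Of 59 other factors, 13 were higher, Gli3 (0.25 ± 0.03), Foxp2 and Meis1 among them, and 3 lower, among them Nr2f2 (-0.40 ± 0.04).

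Osr1 and Osr2 each differed little between cells with and without the other. In the split by Osr1, 589 of 15288 genes passed (3.85 percent) and 2 of 8 members, Osr2 (0.14 ± 0.04) and Tcf7l2 (0.11 ± 0.02), of which Osr2 was lost without KO replicate 1 (0.12), KO replicate 2 (0.11) or WT replicate 1 (0.14). The tendon gene Tnmd fell most, from 46.7, 52.7, 27.9 and 48.8 CPM in cells without Osr1 to 9.23, 10.1, 7.57 and 11.7 CPM in cells with it (-2.15 ± 0.08). Ecrg4 (-1.18 ± 0.04) and C1qtnf3 (-0.97 ± 0.06) fell too, and Plac8 (0.51 ± 0.06), Hhip (0.43 ± 0.06) and Aldh1a2, a retinoic acid synthesis enzyme (0.42 ± 0.06), rose. Plac8 and Hhip stood at -0.20 and -0.36 in the largest sub-cluster alone, where only 9 genes passed in all. Of 59 other factors 7 were higher, Meis2 (0.20 ± 0.04) among them, and 6 lower, Foxp2 (-0.39 ± 0.04) among them, neither passing in the largest sub-cluster alone, and the count of genes was 347 without WT replicate 2.

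In the split by Osr2, 1728 of 15203 genes passed (11.4 percent) and 3 of 8 members, Osr1 (0.17 ± 0.04), Tcf7l2 (0.15 ± 0.02) and Tbx15 (0.09 ± 0.03). Osr1 was lost without KO replicate 1 (0.13) or KO replicate 2 (0.15), and Tbx15 without KO replicate 2 (0.08), WT replicate 1 (0.09) or WT replicate 2 (0.08). Tnmd stood at 11, 8.12, 6.31 and 13.7 CPM in cells with Osr2 and at 49.2, 59.1, 30.5 and 51.9 CPM in cells without it (-2.24 ± 0.09). Ccl11 (-1.94 ± 0.09) and Acta2 (-1.68 ± 0.06) were lower, and Il1rapl2 (0.64 ± 0.04) and Aldh1a3, another retinoic acid synthesis enzyme (0.63 ± 0.06), higher. Among 59 other factors 10 were higher, Tcf4 (0.26 ± 0.02), an E-protein gene distinct from Tcf7l2, among them, and 10 lower, Nr2f2 (-0.81 ± 0.04) among them. Of these, Tnmd, Ccl11, Acta2, Tcf4 and Nr2f2 did not pass in the largest sub-cluster alone. Without KO replicate 2 the count of genes was 1115.

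Cells with Tcf7l2 differed from cells without it in 3279 of 15291 genes (21.4 percent), and 5 of 8 members passed. Tbx5 (0.49 ± 0.11), Tbx18 (0.34 ± 0.07) and Tbx15 (0.21 ± 0.04) were higher, and Pitx1 (-0.30 ± 0.06) and Tbx4 (-0.45 ± 0.14) lower, the last not without KO replicate 2 (-0.40), WT replicate 1 (-0.37) or WT replicate 2 (-0.31). Hpse2 (1.63 ± 0.08), Adarb2 (1.52 ± 0.06) and Lrrtm3 (1.38 ± 0.09) were higher, and the tendon and cartilage genes Tnmd (-2.11 ± 0.12), Fmod (-1.95 ± 0.12) and Acan (-1.78 ± 0.11) lower. Tnmd stood at 20.3, 20.4, 16.6 and 26.6 CPM in cells with Tcf7l2 and at 122, 112, 49.4 and 84.3 CPM in cells without it. Of 59 other factors 15 were higher, led by Meis1 (0.77 ± 0.06) and Ebf2 (0.60 ± 0.04), and 16 lower, led by Foxp1 (-0.75 ± 0.05) and Twist2 (-0.67 ± 0.08). In the largest sub-cluster alone Tbx5 stood at -0.23, Tbx4 at 0.29, Foxp1 at 0.06 and Hoxa11, lower in all FAP-like cells (-0.52 ± 0.10), at 0.14, none of which passed.

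Lmx1b gave the smallest count, 373 of 15778 genes (2.36 percent), and 2 of 8 members. Pitx1 stood at 62.3, 69.4, 69.3 and 50.0 CPM in cells with Lmx1b and at 40.6, 53.5, 40.3 and 42.7 CPM in cells without it (0.45 ± 0.12), and Tbx18 was lower (-0.51 ± 0.15). The call of Pitx1 was lost without KO replicate 1 (0.37) or WT replicate 1 (0.43), and its value was -0.10 in cells thinned to 2000 UMIs. That of Tbx18 was lost without KO replicate 1 (-0.47), KO replicate 2 (-0.45) or WT replicate 2 (-0.49). C1qtnf3 (1.21 ± 0.09), March1 (1.23 ± 0.20) and Mgat4c (0.99 ± 0.17) were higher, the last not without WT replicate 1 (0.34) and at -0.38 in the largest sub-cluster alone. Hbb-bs was lower (-2.08 ± 0.13) with 22.1, 1.36, 12 and 66.7 CPM against 97.3, 3.75, 118 and 214 CPM, and the haemoglobin list as a whole ranged from 7 CPM in WT replicate 2 to 307 CPM in KO replicate 2 in FAP-like cells. Its part in the result was not tested. Hpse2 (-1.78 ± 0.16) and Acta2 (-1.69 ± 0.19) were lower as well. Of 60 other factors 6 were higher, Foxp1, Twist1, Prrx1 and Zfhx4 among them, and 3 lower, Meis2 (-0.77 ± 0.10), Nr2f2 (-0.71 ± 0.10) and Snai2 (-0.69 ± 0.15). Without WT replicate 2 Foxp1 (0.25) and Prrx1 (0.18) were lost and the count of genes was 200, and leaving out KO replicate 1 gave 235.

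The comparison of KO with WT asked whether loss of SYISL moved these factors, over 2 libraries of each genotype. By Xist and the Y-linked genes, KO replicate 2 was female and the other libraries were male, so sex differed within KO alone. Its part in the comparison was not tested. With UMIs summed per library, edgeR called 0 of the 9 members in FAP-like cells, against 0 of 18381 genes in all (0 percent), and 268 genes higher and 260 lower had an unadjusted p under 0.05, while DESeq2 called 7 genes and 0 members. Tbx4 stood at 14.6 and 18.52 CPM in WT and at 13.5 and 12.8 CPM in KO FAP-like cells (-0.30 ± 0.13, edgeR adjusted p = 1.00), and Tbx15 at 175 and 178 CPM in WT and at 182 and 181 CPM in KO (0.08 ± 0.06). These 2 of the 9 members had KO and WT values that did not overlap, Tbx4 lower and Tbx15 higher in KO. So did 5700 of 18381 genes (31 percent). Tbx5 (0.18), Tbx18 (0.17), Lmx1b (0.13), Osr1 (0.07), Osr2 (0.01), Tcf7l2 (-0.00) and Pitx1 (-0.16) had overlapping values.

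In the FAP-like sub-clusters other than Lef1, tenocyte-like, chondrocyte-like, myogenic-like and all kept cells, edgeR called 0 members and 0 genes (0 percent) as well. The Lef1 sub-cluster, where Tbx18 was highest, had fewer than 50 cells in some libraries and was not tested. Over all kept cells, a shift in cell numbers and a shift in RNA per cell cannot be told apart. Some values passed an unadjusted p of 0.05 alone. They come from many tests of members and are given without the share of all genes that did so, so they are no result about the members. In the Anxa8 sub-cluster Tbx5 stood at 6.36 and 2.52 CPM in WT and at 16.4 and 9.16 CPM in KO (1.45 ± 0.46, edgeR adjusted p = 1.00), and Tbx4 was the other such gene there (-0.35 ± 0.15). Tbx18 and Tbx15 in the Ccl11 sub-cluster (0.34 ± 0.11 and 0.31 ± 0.10), Tbx18 and Tbx4 in the Pi16 sub-cluster (0.46 ± 0.13 and -0.53 ± 0.22) and Pitx1 in the cycling sub-cluster (-0.31 ± 0.11) had the same standing. Tbx5 in chondrocyte-like cells (0.75 ± 0.41) passed the adjusted threshold without WT replicate 1, where it stood at 1.60 ± 0.36 (edgeR adjusted p = 0.0255) with WT replicate 2, the lowest library, as the only WT library and the spread taken from KO alone, and Tbx5 in the Anxa8 sub-cluster did so with no filter on low counts (1.44 ± 0.36).

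Smooth muscle or pericyte-like cells were the one class with calls, 12 of 12608 genes (0.0952 percent), and 0 of the 7 members tested there, Tbx5 and Lmx1b having too few UMIs. Osr2 stood at 5.10 and 3.53 CPM in WT and at 9.12 and 8.29 CPM in KO (1.01 ± 0.30, edgeR adjusted p = 0.47), and Pitx1 at 1.43 and 3.29 CPM in WT and at 4.86 and 4.71 CPM in KO (1.06 ± 0.42, edgeR adjusted p = 0.85). KO values lay above WT values for both, and also for Tbx4 and Osr1, so 4 of 7 members did not overlap, against 4298 of 12608 genes (34.1 percent) in either direction. The FAP marker list moved with them in this class, at 3181 and 2696 CPM in WT and 4598 and 3841 CPM in KO, and its members Dcn, Lum and Pdgfra were among the 12 genes called. Their part in the values of Osr2 and Pitx1 was not tested. Tbx18 in this class stood at 38.0 and 49.4 CPM in WT and 41.3 and 43.7 CPM in KO, overlapping.

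**Figure D5:**
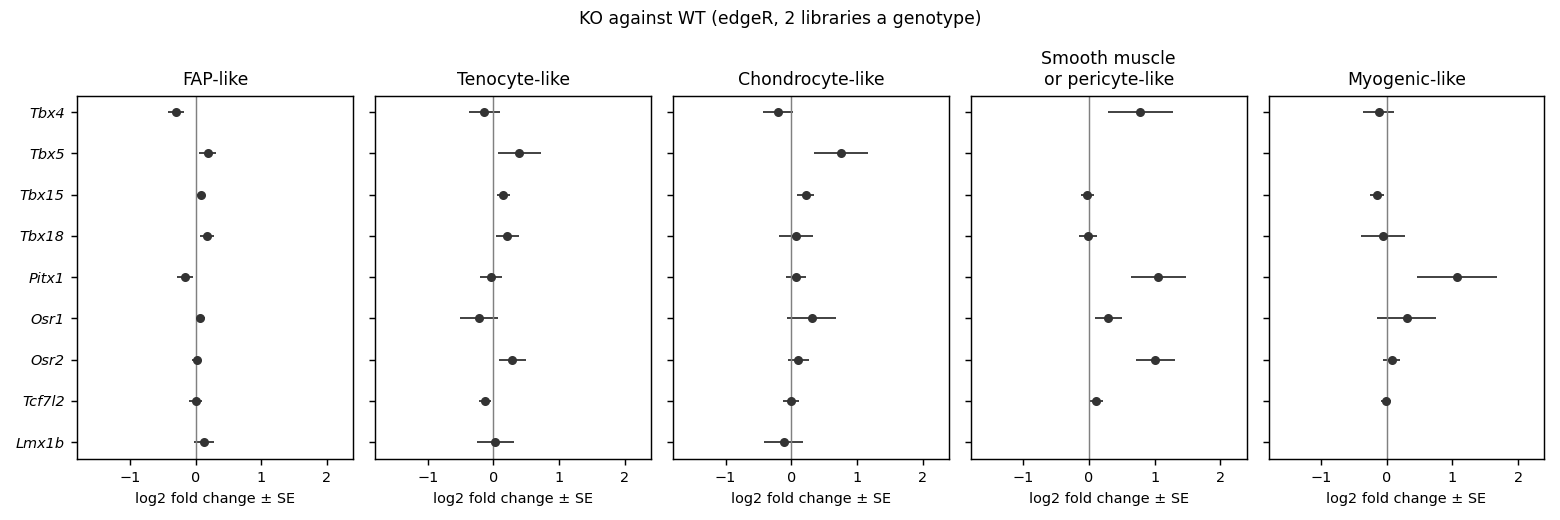
Log2 fold change ± SE (x axis, linear) of KO against WT for each factor (y axis) in 5 cell classes, by edgeR on 2 libraries of each genotype. Members with too few UMIs have no point. FAP-like values lie between -0.30 and 0.18, and no member passed the adjusted threshold in any of the 5 classes.

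The KO effect was also compared between tenocyte-like and FAP-like cells as an interaction, and 0 of 17710 genes (0 percent) and 0 of the 9 members passed by edgeR, with 241 genes higher and 299 lower where p was left unadjusted with the same threshold. Of the 69 other limb and connective tissue factors, 64 were tested between genotypes in FAP-like cells and 0 passed by edgeR, while DESeq2 called 1 of them, the homeobox gene Alx1 (1.73 ± 0.25 higher in KO, DESeq2 adjusted p = 8.30e-08). By edgeR Alx1 stood at 1.73 ± 0.22 there with an adjusted p of 1.00, and at 1.98 ± 0.17 without KO replicate 1. In that fit KO replicate 2, the library with Xist, is the only KO library and the spread comes from WT alone. With 2 libraries of each genotype, absence of a call does not show that the factors were equal.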

How the data were processed

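Leg muscles of WT and SYISL KO fetal mice at embryonic day 18.5 were profiled by droplet single-cell RNA-seq (10x Genomics 3' chemistry), with 2 libraries of each genotype. The deposited matrices held raw UMI counts per gene and cell, which the authors made with Cell Ranger 7.2.0 on the mm10 build, per the submitters' processing notes. The annotation release is not given in the sources used here. Groups were taken from the sample titles. Per the labels the 2 libraries of a genotype were biological replicates.

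The cell filter followed the study's methods (1000 to 6000 genes, 1000 to 25000 UMIs, mitochondrial share under 8%), and the cells left were normalised, log-transformed and clustered with scanpy 1.11.5 (3000 variable genes, 30 principal components, 20 neighbours, Leiden resolution 0.3). Members were kept out of the variable genes, though none would have been chosen in the clustering of all cells. A cluster other than FAP-like was named "X-like" when enough of a marker list was raised in it (at least 3 markers and a fraction of 0.5, each 2-fold up and in 10% of cells). FAP-like was given where no other list passed and at least 3 FAP markers reached 25% of their highest cluster mean. A FAP-like sub-cluster took the name of a list with at least 3 markers 1.5-fold up and in 5% of cells. Of the rest, the largest was called by its size and the others by their leading gene. These rules were set after the data were seen. No doublets were removed in the main analysis, and Scrublet marked 135 to 251 cells a library. Levels are UMIs of a gene scaled to 1000000 UMIs (CPM) over the summed cells of a class, which for 3' counts carry no length term and are compared between classes, not between genes.

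Summed counts were tested with edgeR 4.0.16 (R 4.3.3, TMM factors, filterByExpr, quasi-likelihood test, Benjamini-Hochberg adjustment over all genes tested, threshold 0.05). The SE given with edgeR values was derived, as the absolute log2 fold change over the square root of the F statistic. The SE given with DESeq2 values is the tool's own, so the 2 are not the same statistic. KO was tested against WT in classes and sub-clusters with 50 cells in each library. FAP-like cells were split by a UMI of a member after thinning each cell to 5000 UMIs, summed per library and compared with the library as a block. The scripts were tested on simulated data. Named genes of a split were the 3 with the largest change in each direction among those past the threshold with a mean of at least 20 CPM and every library on the same side, and named factors up to 4 of the list of 69 (mean of at least 10 CPM). The text names only a part of the genes and factors that this rule gives. The alternatives were DESeq2 1.42.0, RLE factors, no filter on low counts, the replicate number as a block, leaving out each library, removing Scrublet calls, a looser cell filter (500 to 7500 genes, at least 500 UMIs, under 15% mitochondrial UMIs), centring within libraries, resolution 1, members allowed among the variable genes, thinning to 2000 UMIs and the largest sub-cluster alone. The members, the lists and the tests were chosen with earlier results of these data known, and the split of Tbx5 against Tbx4 or Pitx1 and the settings of the counts of pairs were added after the data were seen. An SD is taken over libraries, and the 2 libraries of a genotype limit its precision.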

Additional observations from a re-analysis of the deposited data

How the results depend on the processing

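With 2 libraries of each genotype, most limits lie in the comparison of KO with WT. The alternative that allows members among the variable genes repeats the main fit for whole classes, since no member was variable there. Its unchanged values are counted below. Over 232 alternative values of the fold changes of members printed for FAP-like cells, their sub-clusters and smooth muscle or pericyte-like cells, 222 kept their direction and side of the threshold, 1 came to pass it and 9 changed sign, all 9 in FAP-like cells and close to 0: Tcf7l2 by DESeq2 (0.00033), with expression centred within each library (1.2e-05) and with the replicate block (0.0019), and, leaving out 1 library, Lmx1b (-0.045 to 0.28), Osr2 (-0.036 to 0.065), Pitx1 (-0.32 to 0.020) and Tcf7l2 (-0.11 to 0.12). Members called rose from 0 to 1 in the Anxa8 sub-cluster with no filter on low counts and ranged from 0 to 1 in chondrocyte-like cells over the fits that leave out a library, the member being Tbx5 both times. The count of genes called between genotypes, 0 or 12 in the main analysis, moved more. DESeq2 called 7 genes in FAP-like cells, 2, 6, 2, 2 and 6 in the Anxa8, Ccl11, cycling, largest and Pi16 sub-clusters, 2 in myogenic-like and 51 over all kept cells. With no filter on low counts 54 were called in chondrocyte-like cells, 40, 97, 1 and 94 in the Anxa8, cycling, largest and Pi16 sub-clusters, 132 in smooth muscle or pericyte-like cells and 33 in the interaction. With centring 2 were called in the Ccl11 sub-cluster and 28 in smooth muscle or pericyte-like cells, with the looser cell filter 4 in the latter, and at resolution 1 the count was 1 in the cycling sub-cluster and 5 in myogenic-like cells. Leaving out 1 library gave 0 to 7 genes in FAP-like cells, 1 to 64, 10 to 54, 0 to 90, 0 to 16 and 0 to 6 in the Anxa8, Ccl11, cycling, largest and Pi16 sub-clusters, 11 to 57 in chondrocyte-like, 5 to 9 in myogenic-like, 33 to 114 in smooth muscle or pericyte-like and 0 to 189 in tenocyte-like cells, 0 to 58 over all kept cells and 0 to 85 in the interaction. The cause of these moves was not tested.

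The replicate numbers were shared between genotypes, and the labels do not say that a number marks a shared day or batch. Deviations of same-numbered libraries from their group means correlated at 0.31 in FAP-like cells, 0.32 over all kept cells, 0.19 in tenocyte-like and myogenic-like, 0.12 in smooth muscle or pericyte-like and 0.01 in chondrocyte-like cells. With the replicate block, 0 members were called, and the count of genes was 1 in chondrocyte-like cells, 1, 71 and 11 in the Anxa8, Ccl11 and cycling sub-clusters, 54 in myogenic-like and 128 in smooth muscle or pericyte-like cells.

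Of 1686 alternative values of fold changes between cells with and without a member, 1349 kept their direction and call, 315 kept the direction and lost the call (93 of them in the largest sub-cluster alone, 76 at 2000 UMIs and 49 by DESeq2) and 22 changed sign. In the largest sub-cluster alone these were, for Lmx1b, Mgat4c (-0.38), for Osr1, Plac8 (-0.20), Hhip (-0.36) and Pbx3 (0.14), for Osr2, Ptch1 (0.078) and Tbx15 (-0.0063), for Tbx18, Tnmd (0.11), Nr2f2 (-0.030) and Twist1 (0.016), for Tbx4, Schip1 (-0.56), Sox5 (-0.27), Acta2 (0.31), Foxp1 (-0.26) and Pbx3 (-0.029), for Tbx5, Nr2f2 (0.47), and for Tcf7l2, Foxp1 (0.064), Hoxa11 (0.14), Tbx5 (-0.23) and Tbx4 (0.29). At 2000 UMIs they were Dach1 for Tbx18 (-0.19), Pitx1 for Lmx1b (-0.10) and Tbx15 for Tbx5 (-0.050). The counts of genes by the splits of Lmx1b, Osr1, Osr2, Pitx1, Tbx15, Tbx18, Tbx4, Tbx5 and Tcf7l2 were 109, 185, 622, 680, 693, 264, 350, 251 and 1753 by DESeq2 and 72, 174, 526, 359, 665, 193, 271, 225 and 2131 at 2000 UMIs, where fewer UMIs enter the sums. In the largest sub-cluster alone, with fewer cells, they were 93, 9, 200, 298, 902, 120, 111 and 667 for those splits other than Tbx5. Leaving out 1 library gave 200 to 255, 347 to 505, 1115 to 1430, 897 to 1357, 1365 to 1521, 381 to 640, 308 to 708, 244 to 384 and 2335 to 2989. Tbx5 against Tbx4 or Pitx1 called 366 by DESeq2, 244 at 2000 UMIs and 478 to 921 without 1 library.

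The level of Tbx4 in chondrocyte-like cells was 30.8 CPM and that of Osr2 in FAP-like cells 103 CPM with the looser cell filter. The ratio of cells with both Tbx4 and Pitx1 was 1.20 at 2000 UMIs, 1.85 in the largest sub-cluster alone and 1.77 with the expected number taken within libraries only, that of Tbx5 and Pitx1 was 0.15 in the largest sub-cluster alone, and that of Pitx1 and Lmx1b was 0.84 at 2000 UMIs.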

Other observations

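Alx1, an aristaless-type homeobox gene on the list of other limb factors, was chosen for mention after its values were seen. Over all kept cells of each library it held 159 and 162 UMIs in WT and 431 and 670 UMIs in KO, or 1.70 and 1.65 CPM against 4.45 and 6.15 CPM. KO and WT values did not overlap. In FAP-like cells 5700 of 18381 tested genes (31 percent) did not overlap either, and the share over all kept cells was not counted. The log2 fold change of Alx1 between genotypes was 1.73 ± 0.26 in the largest FAP-like sub-cluster by edgeR (adjusted p = 0.99), and DESeq2 called it there too (1.74 ± 0.28, DESeq2 adjusted p = 1.30e-05). In the cycling sub-cluster edgeR gave 2.03 ± 0.30 (adjusted p = 1.00), and 2.04 ± 0.24 with the replicate block (edgeR adjusted p = 0.0137). Between FAP-like cells of the split by limb-type genes, Alx1 was higher with Tbx5 than with Tbx4 or Pitx1 (4.09 ± 0.37, edgeR adjusted p = 2.37e-07).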
